A study of Mus musculus with 8 samples.

Results

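The genes described here make and load MHC class I molecules. They are 9 of the 23284 genes counted in each library, chosen by name for their role in the pathway: the heavy chains H2-K1 and H2-D1, the light chain B2m, the peptide loading genes Tap1, Tap2 and Tapbp, the immunoproteasome subunits Psmb8 and Psmb9, and the transactivator Nlrc5. Low class I expression in MYCN-driven neuroblastoma is background knowledge, and the design allows the same genes to be compared in mouse retina with and without a MYCN transgene. RNA was taken from peripheral retina of mice at postnatal day 12 and sequenced as poly(A)-selected libraries, 4 per group. The first group, called Rb-null here, carried a Cre driven by the Pax6 alpha enhancer and loxP-flanked Rb alleles. The second group, called TET-MYCN here, is labelled Rb null as well and carried the same Cre with a Rosa26 LSL-RTTA allele and a TRE-MYCN transgene. The series text does not repeat the loxP-flanked Rb allele for the second group, and names no doxycycline. The strain, and with it the MHC haplotype, is not given in the sources used here. The Pax6 alpha enhancer is active in peripheral retinal progenitors, so recombination is limited to their descendants. Vessels and immune cells of the same tissue do not descend from them. Nothing in the labels says that the 4 libraries of a group came from separate animals, so the p-values speak only for variation among the libraries at hand, part of which may be technical.

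Class I molecules display peptides from inside the cell to CD8 T cells and are also read by natural killer cells. The proteasome cuts proteins, TAP carries the peptides into the endoplasmic reticulum, and tapasin holds an empty class I molecule at TAP until a peptide is bound. In the healthy brain and retina class I RNA is low, with more in vessels and microglia than in most neurons, and interferons raise it, in part through IRF1 and NLRC5. Because whole tissue was sequenced, fewer cells of a type and less RNA per cell cannot be told apart.

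The upstream regions of the class I heavy chain genes and B2m are known for a shared layout. In it an NF-kB site, an interferon response element, the X2 box of the SXY module and a CCAAT-type Y box lie close together. RefSeq promoters (GRCm38.p6) were matched for 7 of the 9 genes, with none for Tap2 or Nlrc5. The 250 bases before the start site are shown for the 2 heavy chains, which resemble each other, for B2m, which carries the most kinds of match, and for Tap1, whose region is shared with Psmb9. They lie at chr17:34000348-34000597 on the minus strand for H2-K1, and at chr17:35262844-35263093, chr2:122147437-122147686 and chr17:34187306-34187555 on the plus strand for H2-D1, B2m and Tap1. Each is printed 5′ to 3′ on the strand of the gene. Capitals mark matches on either strand to 6 patterns: the E-box CACGTG, the interferon-stimulated response element core (GAAA, any 2 bases, GAAA), the gamma-activated sequence TTCNNNGAA, the CCAAT box CCAAT, the X2 core TGACG and the NF-kB consensus.
H2-K1: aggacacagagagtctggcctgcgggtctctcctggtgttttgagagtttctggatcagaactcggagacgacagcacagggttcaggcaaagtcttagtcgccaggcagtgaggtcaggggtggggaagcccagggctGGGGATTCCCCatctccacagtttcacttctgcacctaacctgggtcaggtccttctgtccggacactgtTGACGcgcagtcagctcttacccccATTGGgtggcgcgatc
H2-D1: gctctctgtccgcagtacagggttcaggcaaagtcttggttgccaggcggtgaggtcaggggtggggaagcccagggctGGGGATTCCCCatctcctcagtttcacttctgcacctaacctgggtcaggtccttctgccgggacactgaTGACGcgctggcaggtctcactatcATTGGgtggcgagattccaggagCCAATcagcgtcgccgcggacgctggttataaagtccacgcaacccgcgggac
B2m: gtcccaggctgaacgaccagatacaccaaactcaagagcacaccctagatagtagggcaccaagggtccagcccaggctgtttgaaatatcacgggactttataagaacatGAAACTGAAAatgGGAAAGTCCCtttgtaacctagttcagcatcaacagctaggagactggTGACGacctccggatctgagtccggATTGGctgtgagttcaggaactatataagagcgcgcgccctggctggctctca
Tap1: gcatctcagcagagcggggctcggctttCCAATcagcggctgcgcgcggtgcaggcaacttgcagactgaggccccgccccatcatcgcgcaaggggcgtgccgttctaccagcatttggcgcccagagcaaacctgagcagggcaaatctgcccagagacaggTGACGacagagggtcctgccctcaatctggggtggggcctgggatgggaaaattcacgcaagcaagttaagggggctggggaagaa

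The X2 core was found in 5 of the 7 promoters (H2-K1, H2-D1, B2m, Tap1 and Psmb9) when the search ran from 250 bases before to 50 bases after the start. It was found in 20.8% of all 32817 RefSeq promoters of the same length. The CCAAT box was found in 6 of the 7, all but Psmb8, against 37.4% of all promoters. NF-kB consensus matches were found in H2-K1, H2-D1 and B2m, against 8.46% of all promoters, and in both heavy chains the forward and reverse matches overlap. The response element core was found in B2m alone of the 7, against 3.43% of all promoters, and the gamma-activated sequence in Psmb8 alone, against 8.29%. Only exact matches to the core are found, so a promoter without a match may still hold a response element that departs from it. The E-box CACGTG, the site that MYC family proteins are best known to bind, was found in 0 of the 7, against 7.15% of all promoters. These are matches of letters in a fixed window, not measured binding. The H2-K1 and H2-D1 regions were identical at 166 of 190 aligned bases (87.4%), with the start site placed farther downstream in H2-D1. Tap1 and Psmb9 are read in opposite directions from starts 226 bases apart, so their windows of 300 bases share 275 bases and both the X2 core and the CCAAT match of Tap1 are the same bases as those of Psmb9.

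The libraries held 14872131 to 22873979 reads in genes, and 28.3% to 31.7% of the reads listed in each file were assigned to no gene. Multiply aligned reads made up 12.8% in TET-MYCN 3, 11.7% in Rb-null 1 and 9.05% to 10.12% in the other 6. Values below are CPM, the reads of a gene scaled to a common library size by the TMM method, and 3 reads correspond to 0.130 to 0.202 CPM. Endogenous Mycn was 231 ± 94.96 CPM in Rb-null and 242 ± 37.6 CPM in TET-MYCN libraries (SD, n = 4 each), with an edgeR log2 fold change of 0.07 ± 0.28 (SE, adjusted p = 0.934), and whether transgene reads can align to it is not given in the sources used here. Rb1, deleted in part in both groups by their labels, was 161 ± 21.9 and 154 ± 23.6 CPM (-0.06 ± 0.14, adjusted p = 0.883), and a whole-gene count does not show whether the loxP-flanked part was removed. Rod markers, given as a sum further on, were present in all 8 libraries.

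None of the 9 genes differed between the groups at an adjusted p under 0.05 in edgeR's quasi-likelihood test, in either direction. Over all 15106 genes tested, 9 passed that threshold (0.0596%), a share at which a list of 9 genes would mostly hold 0. All 9 genes passed the filter on low counts. Their log2 fold changes (TET-MYCN against Rb-null) ran from -0.71 to 0.22 with a median of -0.13, 4 positive and 5 negative. This split moved with single libraries: 8 of 9 were negative without TET-MYCN 3 or without Rb-null 1, 7 without Rb-null 3, and 3 without Rb-null 4. The median over all genes was 0.01, with 52.2% positive and 47.8% negative. At an unadjusted p under 0.05 there was 1 of the 9, Tapbp, against 15.8% of all genes (8.06% higher and 7.72% lower in TET-MYCN). After adjustment DESeq2 and limma-voom each gave 0 of 9, where they gave 3.71% and 0% of all genes. The 2 groups overlapped for all 9 genes, whereas they did not overlap for 7.65% of all genes.

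**Figure D1:**
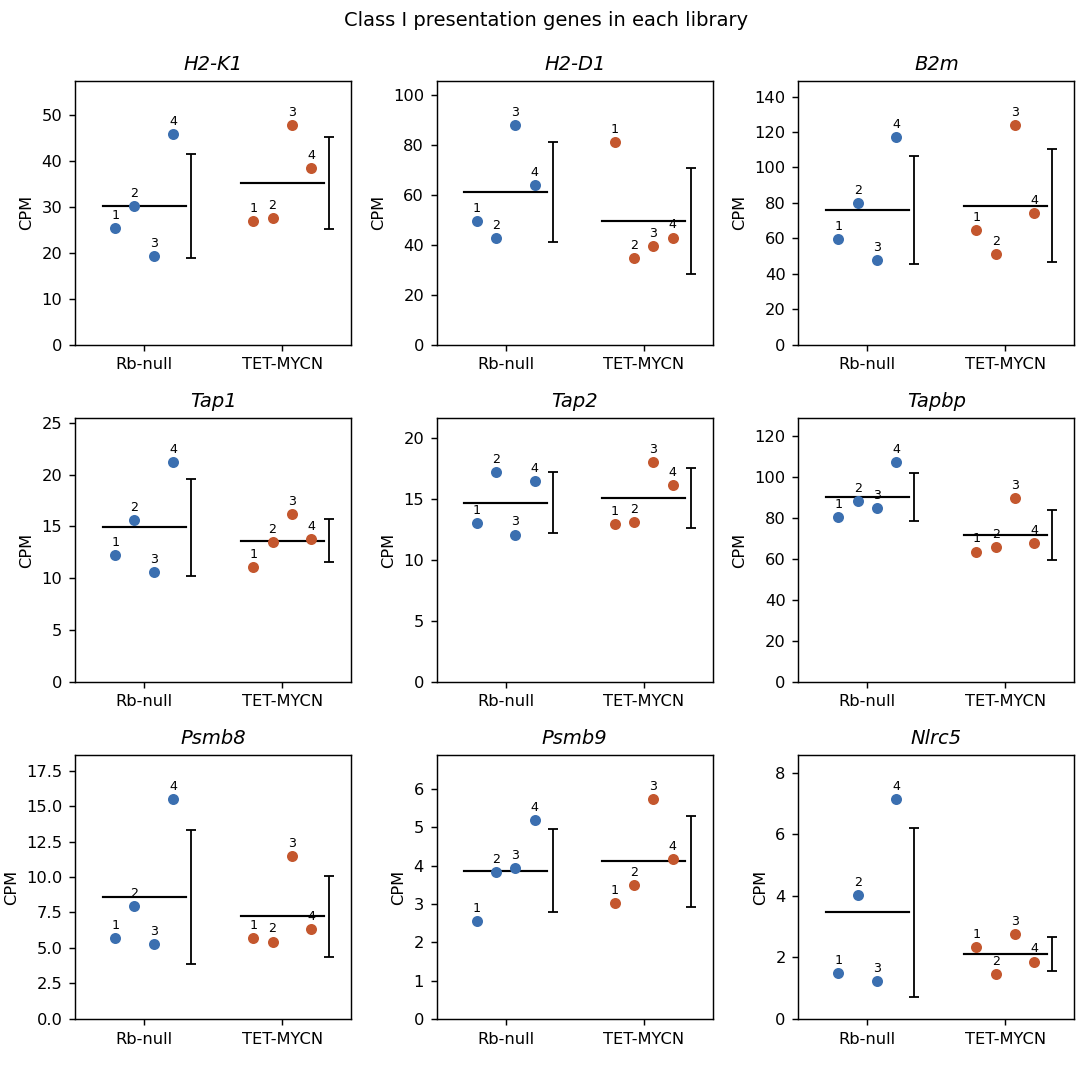
CPM (vertical axes, linear from 0) of each class I gene in the 4 Rb-null (blue) and 4 TET-MYCN (orange) libraries, numbered 1 to 4. Horizontal lines are group means and bars beside them ± 1 SD. The groups overlap in all 9 panels, and Rb-null 4 and TET-MYCN 3 stand at the top of most of them.

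H2-K1 and H2-D1 encode the classical heavy chains, which form the peptide groove. H2-K1 was 25.4, 30.2, 19.4 and 45.8 CPM in Rb-null 1 to 4, and in TET-MYCN 1 to 4 it was 26.9, 27.6, 47.9 and 38.5 CPM. Its 2 highest libraries, TET-MYCN 3 and Rb-null 4, came from different groups. The group means were 30.2 ± 11.3 and 35.2 ± 9.97 CPM (SD, n = 4), a log2 fold change of 0.22 ± 0.27 (edgeR, SE, adjusted p = 0.741). H2-D1 took a different course, at 49.4, 42.7, 87.9 and 63.9 CPM in Rb-null and 81.0, 34.8, 39.3 and 42.9 CPM in TET-MYCN libraries. It was highest in Rb-null 3, the library where H2-K1 was lowest, and next in TET-MYCN 1. Without TET-MYCN 1 the log2 fold change was -0.65 (unadjusted p = 0.0216, adjusted p = 0.369 in edgeR), and without Rb-null 3 it was -0.074. Over all 8 libraries the means were 61.0 ± 19.997 and 49.5 ± 21.3 CPM, with a 95% interval of the log2 fold change from -0.96 to 0.36 (edgeR, adjusted p = 0.666). The sum of both heavy chains ranged from 72.9 to 110 CPM in Rb-null and from 62.4 to 108 CPM in TET-MYCN libraries.

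The share of H2-K1 among the reads of both heavy chains was compared between libraries after these values were seen. It was 33.9%, 41.4%, 18.1% and 41.8% in Rb-null 1 to 4, and 25.0%, 44.2%, 54.9% and 47.3% in TET-MYCN 1 to 4. Counting error was small beside this range: the 95% Clopper-Pearson interval was 16.2% to 20.03% in Rb-null 3 and 52.4% to 57.4% in TET-MYCN 3. Group means of 33.8% ± 11.1 and 42.8% ± 12.7 (SD, n = 4) differed by 9.05 points, less than the spread within either group, and a two-sided exact permutation test over all 70 arrangements gave p = 0.343. The transcripts of these genes are partly alike. Of the 50-base windows of H2-K1 transcripts, 9.63% also occur in transcripts of other genes, 4.08% in H2-D1, and for H2-D1 the shares are 12.8% and 5.44%. A read that lies wholly within such a window matches other genes as well, which makes the levels of H2-K1 and H2-D1 uncertain. The number of such reads was not counted, and windows of all annotated transcripts count alike. These percentages therefore do not give the size of that uncertainty. The windows come from a single reference sequence, while the MHC haplotype of these mice is not given. Whether reads of a different haplotype were lost or misplaced, and the part of this in the shares above, was not tested.

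**Figure D2:**
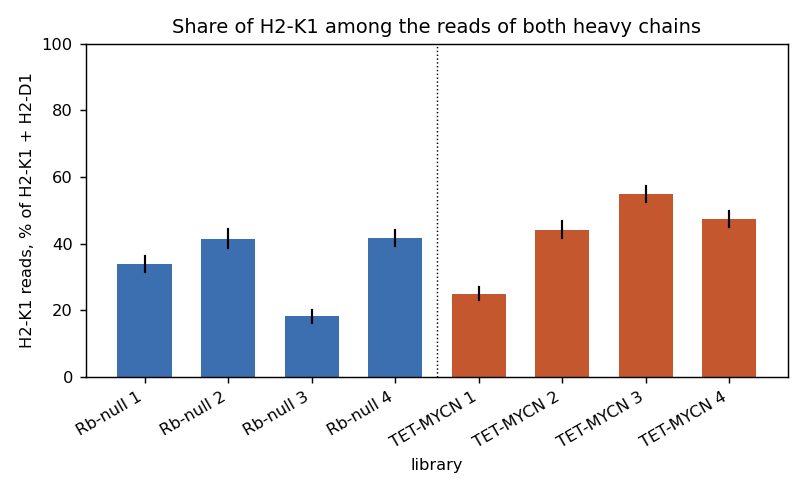
Share of H2-K1 among H2-K1 plus H2-D1 reads (vertical axis, percent, 0 to 100) in each library, with Rb-null in blue and TET-MYCN in orange. Vertical lines are 95% Clopper-Pearson intervals, which cover counting error only. The share runs from 18.1% in Rb-null 3 to 54.9% in TET-MYCN 3, and both groups span a wide range.

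B2m encodes beta-2 microglobulin, the light chain that every class I heavy chain needs to reach the cell surface. B2m stood at 59.5, 79.8, 47.7 and 117 CPM in Rb-null 1 to 4, and at 64.7, 50.9, 124 and 74.1 CPM in TET-MYCN 1 to 4. TET-MYCN 3 and Rb-null 4 were again the 2 highest, and Rb-null 3 the lowest. Group means were nearly the same, 76.1 ± 30.5 and 78.4 ± 31.8 CPM (SD, n = 4), and the log2 fold change was 0.04 ± 0.32 (edgeR, SE, adjusted p = 0.967). The 95% interval of the fold ran from 0.631 to 1.68.

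Tap1 and Tap2 encode the paired chains of the peptide transporter. Tap1 was 12.3, 15.6, 10.6 and 21.2 CPM in Rb-null and 11.1, 13.5, 16.2 and 13.7 CPM in TET-MYCN libraries. It was highest in Rb-null 4 and, among TET-MYCN libraries, in TET-MYCN 3, with a log2 fold change of -0.13 ± 0.22 (edgeR, SE, adjusted p = 0.825). Tap2 was the steadiest of the 9, at 13.04, 17.2, 12.1 and 16.4 against 12.9, 13.1, 18.0 and 16.1 CPM, and its highest library exceeded its lowest 1.49-fold. Its means of 14.7 ± 2.51 and 15.0 ± 2.47 CPM gave a log2 fold change of 0.03 ± 0.17 (edgeR, adjusted p = 0.948).

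Tapbp encodes tapasin, which edits the peptide cargo. It was 80.8, 88.6, 84.9 and 107 CPM in Rb-null and 63.7, 66.0, 89.8 and 67.7 CPM in TET-MYCN libraries. TET-MYCN 1, 2 and 4 lay below all 4 Rb-null libraries, while TET-MYCN 3 lay above 3 of them. Means were 90.4 ± 11.8 and 71.8 ± 12.1 CPM (SD, n = 4), a log2 fold change of -0.33 ± 0.14 with a 95% interval from -0.64 to -0.03. The unadjusted p was 0.0356 and the adjusted p 0.286 in edgeR, so Tapbp did not pass the test over all genes. Without TET-MYCN 3 the log2 fold change was -0.46 and the adjusted p 0.0665, in a fit in which 230 of all genes passed. Of the 50-base windows of Tapbp transcripts 23.2% also occur in transcripts of other annotated genes, the largest share among the 9.

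Psmb8 and Psmb9 encode immunosubunits that replace catalytic subunits of the standard proteasome. Psmb8 was 5.70, 7.96, 5.31 and 15.5 CPM in Rb-null and 5.68, 5.45, 11.5 and 6.35 CPM in TET-MYCN libraries. A single library in each group, Rb-null 4 and TET-MYCN 3, stood well above the other 3, and the log2 fold change was -0.25 ± 0.37 (edgeR, SE, adjusted p = 0.799). Psmb9 was 2.55, 3.83, 3.93 and 5.18 against 3.03, 3.505, 5.73 and 4.18 CPM, on 49 to 102 reads a library. Its log2 fold change was 0.09 ± 0.27 (edgeR, SE, adjusted p = 0.908).

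Nlrc5 encodes the transactivator that acts at the SXY module of class I promoters. It was 1.48, 4.01, 1.25 and 7.13 CPM in Rb-null and 2.35, 1.47, 2.75 and 1.86 CPM in TET-MYCN libraries, on 19 to 106 reads. Rb-null 4 and Rb-null 2 were high, and the other 6 libraries lay between 1.25 and 2.75 CPM. Means of 3.47 ± 2.75 and 2.11 ± 0.560 CPM (SD, n = 4) gave a log2 fold change of -0.71 ± 0.51 (edgeR, SE, adjusted p = 0.531). Without Rb-null 4 it was -0.10, so the difference rests on that library. Its highest library exceeded its lowest 5.73-fold, the widest ratio of the 9.

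**Figure D3:**
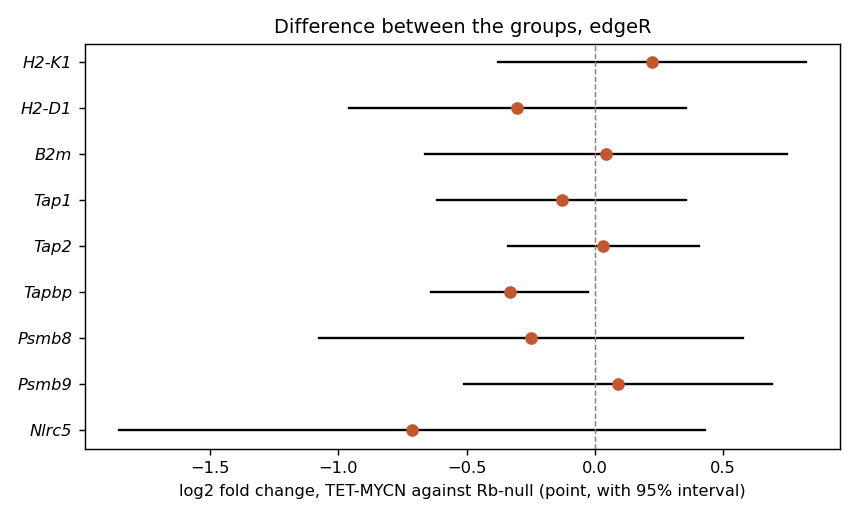
Log2 fold change of each class I gene (horizontal axis, TET-MYCN against Rb-null, n = 4 each) from edgeR, with its 95% interval as a line. Intervals of 8 genes cross 0 and that of Tapbp runs from -0.64 to -0.03.

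Compared per length, as CPM per kilobase of annotated exon averaged over the 8 libraries, B2m was the most abundant at 89.8, and its libraries (55.5 to 144) did not overlap those of any other of the 9. Tapbp (22.4), H2-D1 (21.4) and H2-K1 (11.1) followed, and neighbours in that order overlapped between libraries. Tap2 (3.93) and Tap1 (2.60) came next, below every value of H2-K1, and Psmb8 (2.34) overlapped Tap1. Psmb9 (1.09) and Nlrc5 (0.328) were the lowest and overlapped each other. Exon lengths came from GENCODE annotation of another build than the counts, so small steps in this order carry that uncertainty. Each length also joins the exons of all annotated transcripts, which lowers genes with many transcripts more. B2m had 860 bases from 1 transcript, H2-K1 2938 from 16, Psmb8 3381 from 7 and Psmb9 3660 from 7. The part of this in the order, larger steps included, was not tested.

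Libraries of the same group differed widely in these 9 genes, and often in the same direction. Rb-null 4 and TET-MYCN 3 were the 2 highest libraries for 6 of them (H2-K1, B2m, Tap1, Tapbp, Psmb8 and Psmb9), and this pair was the highest for 9.12% of all genes tested. In Rb-null 4 all 9 lay above their own mean over the libraries, in TET-MYCN 3 all but H2-D1, and in TET-MYCN 2 0 of 9. Averaged over the 8 genes other than H2-D1, which was set aside after its values were seen, the log2 deviation from the gene mean was 0.68 in Rb-null 4 and 0.43 in TET-MYCN 3. It was 0.18 in Rb-null 2 and -0.03 in TET-MYCN 4, and lay between -0.40 and -0.24 in the other 4. With H2-D1 included the average was 0.64 in Rb-null 4, 0.34 in TET-MYCN 3 and -0.15 in TET-MYCN 1. The same average over all genes stayed between -0.02 and 0.02 in every library. TMM scaling holds it near 0, so it does not show that the shift is particular to the class I genes. TET-MYCN 3 also had the largest share of multiply aligned reads (12.8%), while Rb-null 4 had 10.12%. The part of that share in the levels was not tested.

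Correlations with B2m over the 8 libraries, computed on log2 CPM and chosen after the values were seen, give the size of this shared variation. These 8 relations share library preparation and scaling, and p-values are two-sided exact permutation values with Benjamini-Hochberg adjustment over the 8. How many of all genes follow B2m as closely was not counted. The p-values therefore do not show that these relations are particular to class I genes. For Psmb8, Pearson's r was 0.935 (permutation p = 0.00109, adjusted 0.00754) and Spearman's rank coefficient 0.952 (permutation p = 0.00114, adjusted 0.00913). For H2-K1, r was 0.924 (permutation p = 0.00188, adjusted 0.00754) and Spearman's coefficient 0.905 (permutation p = 0.00456, adjusted 0.0116). Leaving out Rb-null 4 and TET-MYCN 3, the libraries farthest from the median of B2m, r was 0.866 for Psmb8 and 0.778 for H2-K1.

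For Tap2, r was 0.882 (adjusted permutation p = 0.00913), for Tap1 0.841 (0.0216) and for Nlrc5 0.809 (0.0377), with Spearman's coefficients of 0.881, 0.881 and 0.905 (adjusted permutation p = 0.0116 each). Without the same 2 libraries r was 0.895, 0.665 and 0.841. For Psmb9 r was 0.748 (adjusted permutation p = 0.0438) and Spearman's coefficient 0.643 (adjusted permutation p = 0.128), and r fell to 0.159 without the 2 libraries. For Tapbp r was 0.615 and Spearman's coefficient 0.619 (adjusted permutation p = 0.127 and 0.131), and r was 0.043 without them. The pooled relation of Psmb9 with B2m was thus weak without Rb-null 4 and TET-MYCN 3, whose removal also narrows the range of B2m. Within the groups, which keep these libraries, r of Psmb9 was 0.629 in Rb-null and 0.880 in TET-MYCN (n = 4 each). For Tapbp the pooled values also include its lower level in 3 of the 4 TET-MYCN libraries. Within the groups r of Tapbp was 0.889 in Rb-null and 0.916 in TET-MYCN libraries. H2-D1 showed no such relation, with r of -0.223 and Spearman's coefficient of -0.310 (adjusted permutation p = 0.600 and 0.462).

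The genes whose pattern over the 8 libraries was most like the mean pattern of the 9 were Tor3a (r = 0.969), Irgm1 (0.963), Lgals9 (0.961), Gbp2 (0.946) and Alkbh4 (0.945). Mkrn3 (0.925), Ifitm3 (0.923), Oas1b (0.919), Pik3r6 (0.918) and Gbp3 (0.915) followed. Of these 10 genes, 5 (Irgm1, Gbp2, Ifitm3, Oas1b and Gbp3) are on the list of interferon-stimulated genes described further on. The r values are descriptions of 8 libraries and carry no test.

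Other members of the class I family include the non-classical heavy chains of the Q, T and M clusters and class I-like proteins such as the neonatal Fc receptor. Of 28 in the files, 16 were tested and 0 passed in edgeR, 9 with positive and 7 with negative log2 fold changes and a median of 0.11 (0.01 over all genes). H2-T24 was lowest in TET-MYCN libraries 3 and 2, at 4.72 ± 2.09 against 2.62 ± 1.06 CPM (log2 fold change -0.85 ± 0.35, adjusted p = 0.289). H2-Q2 was 1.29 ± 0.899 against 2.70 ± 1.56 CPM (1.06 ± 0.52, adjusted p = 0.349). Fcgrt, the neonatal Fc receptor, was 11.9 ± 2.78 against 15.6 ± 3.53 CPM (0.40 ± 0.21, adjusted p = 0.392). H2-Q9, H2-T9, H2-M10.1 and Azgp1 had 0 reads in all 8 libraries. H2-T23, the non-classical chain that presents leader peptides to natural killer cells, was named after its values were seen: it was highest in Rb-null 4 (15.5 CPM) and 4.07 to 9.67 CPM elsewhere.

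Chaperones and peptidases that serve class I assembly gave small differences. Of 16, all were tested, 0 passed in edgeR, and signs were 9 positive to 7 negative around a median of 0.03. Lap3, a leucine aminopeptidase, was 34.5 ± 4.03 against 46.8 ± 7.48 CPM (0.44 ± 0.14, adjusted p = 0.207). Abcb9, a lysosomal relative of TAP, was 19.96 ± 3.07 against 15.2 ± 3.04 CPM (-0.39 ± 0.18, adjusted p = 0.313). Sec61a1, a channel subunit of the endoplasmic reticulum, was 173 ± 10.7 against 200 ± 15.9 CPM and did not overlap between groups (0.21 ± 0.10, adjusted p = 0.323). Of 8 other proteasome-related genes, which include standard catalytic subunits, 0 passed, 7 were positive and the median was 0.07. Psme3 was 127 ± 4.20 against 139 ± 6.43 CPM (0.13 ± 0.08, adjusted p = 0.474), without overlap. Psmb7 was 120 ± 10.9 against 136 ± 28.9 CPM (0.17 ± 0.15, adjusted p = 0.600).

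Psmb10, the remaining immunosubunit, was 12.7, 12.6, 13.3 and 20.5 CPM in Rb-null and 11.5, 9.996, 17.3 and 12.9 CPM in TET-MYCN libraries, with Rb-null 4 and TET-MYCN 3 again on top (-0.19 ± 0.22, adjusted p = 0.717). The proteasome activator genes Psme1 and Psme2, named after their values were seen, also had this pair on top. Rb-null 4 and TET-MYCN 3 were the 2 highest libraries for 6 of the 8 proteasome-related genes, Psmb5 and Psmb7 of the standard proteasome among them. TET-MYCN 3 was the highest for 6 of the 8, and for 21.96% of all genes.

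The transcription factors that act on class I promoters split evenly: of 22, 0 passed, 11 were positive and 11 negative, and the median log2 fold change was -0.01. Stat2, a signal transducer of type I interferon, was 47.6 ± 8.24 against 40.1 ± 2.85 CPM (-0.25 ± 0.13, adjusted p = 0.379), and Irf2, mostly a repressor, 34.2 ± 2.27 against 29.1 ± 4.17 CPM (-0.23 ± 0.12, adjusted p = 0.387). Irf7, named after its values were seen, was 32.8 CPM in Rb-null 4 and 2.82 to 11.4 CPM in the other 7 libraries.

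Among 12 interferon receptor and signalling genes, 0 passed, 5 were positive and 7 negative, and the median was -0.06. Ifnar2, a chain of the type I receptor, was 15.4 ± 1.44 against 19.5 ± 3.48 CPM (0.34 ± 0.15, adjusted p = 0.320). Il10rb, shared by interleukin-10 and lambda interferon receptors, was 4.26 ± 0.526 against 5.50 ± 1.35 CPM (0.37 ± 0.22, adjusted p = 0.433). Ifngr1, the ligand-binding chain for interferon gamma, was 34.02 ± 4.70 against 29.0 ± 5.02 CPM (-0.23 ± 0.15, adjusted p = 0.476). Ifng itself had 0 reads in all 8 libraries, which at 3 reads allows at most 0.130 to 0.202 CPM per library.

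Interferon-stimulated genes were highest together in a single library. Of 39 in the files, 37 were tested and 34 of them were highest in Rb-null 4 (91.9%), the highest library for 7.97% of all genes. Their mean log2 deviation from the gene mean was 1.11 in Rb-null 4 and 0.30 in TET-MYCN 3, and lay between -0.46 and 0.09 in the other 6. Oasl2, an oligoadenylate synthetase-like protein, was 58.7 CPM in Rb-null 4 and 8.36 to 25.7 CPM elsewhere. Ifit3 and Bst2, both antiviral and named after their values were seen, were 11.9 and 35.3 CPM in Rb-null 4. Elsewhere Ifit3 was 0.741 to 5.68 CPM and Bst2 5.76 to 13.3 CPM.

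Between the groups 0 of the 37 passed in edgeR, 3 had an unadjusted p under 0.05 (2 lower and 1 higher, against 7.72% and 8.06% of all genes) and 35 of 37 were lower on average in TET-MYCN libraries, the median log2 fold change being -0.48. Without Rb-null 4, 20 of 37 were negative and the median was -0.02, while 49.1% of all genes were negative. The lower level in the TET-MYCN group therefore rests on that library. Left-out libraries also moved the count of lower genes at an unadjusted p under 0.05, to 11 of 37 without Rb-null 1 (6.74% of all genes) and to 8 of 37 without TET-MYCN 3 (10.9% of all genes). Trim25, a ubiquitin ligase of RNA sensing, was 35.7 ± 8.13 against 24.3 ± 3.95 CPM without overlap (-0.55 ± 0.18, adjusted p = 0.207). Oasl2 was 28.1 ± 21.1 against 13.8 ± 4.07 CPM (-1.02 ± 0.45, adjusted p = 0.311), and Oas2 had the opposite sign, at 2.08 ± 0.579 against 3.38 ± 0.982 CPM (0.69 ± 0.29, adjusted p = 0.295).

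**Figure D4:**
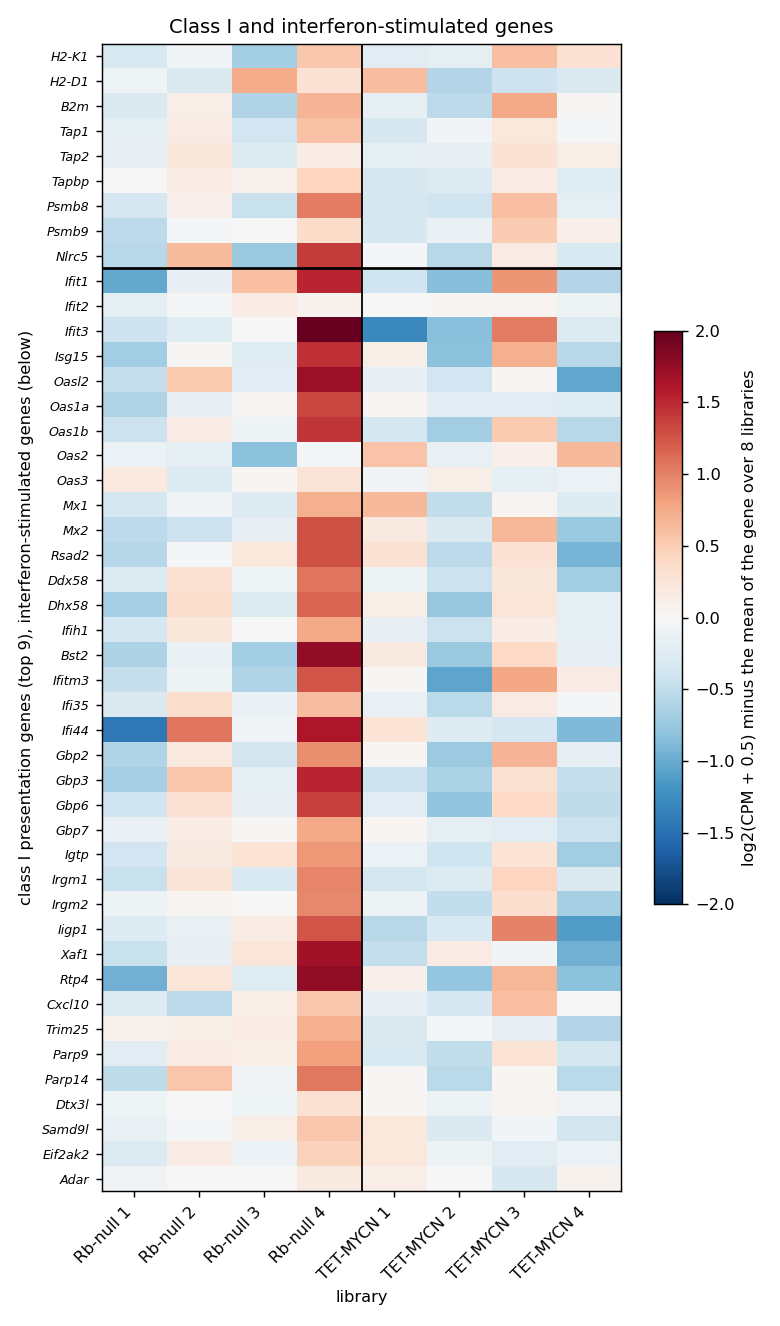
Log2(CPM + 0.5) minus the mean of each gene over the 8 libraries, as colour limited at 2 in either direction, for the 9 class I genes (top) and 37 interferon-stimulated genes (below). The column of Rb-null 4 is red for nearly all genes, TET-MYCN 3 is paler red, and H2-D1 does not follow the other class I genes.

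Class II molecules present peptides from outside the cell and are made mainly by macrophages, dendritic cells and B cells. Of 13 class II presentation genes in the files 8 were tested, 0 passed in edgeR, 7 had positive signs and the middle log2 fold change was 0.63. At an unadjusted p under 0.05 there were 4, all higher in TET-MYCN, against 8.06% of all genes. H2-Ab1, the class II beta chain, was 1.58, 0.790, 0.786 and 1.28 CPM in Rb-null and 5.50, 2.38, 2.87 and 3.12 CPM in TET-MYCN libraries. It did not overlap between the groups, but the adjusted p of its log2 fold change of 1.62 ± 0.34 was 0.151. Cd74, the invariant chain, was 1.75 ± 0.403 against 3.05 ± 0.923 CPM (0.80 ± 0.29, adjusted p = 0.238), and the thiol reductase gene Ifi30 14.8 ± 2.04 against 20.6 ± 5.58 CPM (0.47 ± 0.21, adjusted p = 0.309). The order of libraries differed from that of class I: class II genes averaged 0.59, 0.47 and 0.34 above their means in TET-MYCN 4, 3 and 1, and -0.02 in Rb-null 4.

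Of the 9 class I genes, 7 lie on chromosome 17 in the MHC region, while B2m is on chromosome 2 and Nlrc5 on chromosome 8. Of 72 other genes of the MHC region in the files, 66 were tested, 0 passed, 38 were positive and 28 negative, and the median log2 fold change was 0.02. Rps18, a ribosomal protein gene with many near-identical copies, was 233 ± 26.3 against 367 ± 88.6 CPM (0.65 ± 0.18, adjusted p = 0.168). Rdbp was 30.5 ± 2.11 against 40.8 ± 5.34 CPM (0.42 ± 0.12, adjusted p = 0.170) and Wdr46 19.1 ± 1.52 against 28.2 ± 6.74 CPM (0.56 ± 0.16, adjusted p = 0.185), both without overlap. Their averages stayed within -0.12 and 0.13 of the gene means in every library, and Rb-null 4 stood at 0.05.

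Markers of the cells that carry most class I in neural tissue were set beside these values. The 20 microglia markers, all tested, had 11 positive and 9 negative log2 fold changes, a median of 0.02 and a summed level of 349 to 709 CPM in Rb-null and 372 to 663 CPM in TET-MYCN libraries. Their mean deviation was 0.45 in Rb-null 2, 0.30 in TET-MYCN 3, 0.26 in TET-MYCN 4 and 0.08 in Rb-null 4. The 16 endothelial markers tested had 14 negative values, a median of -0.25 and sums of 515 to 585 against 420 to 561 CPM, with the largest deviation, 0.33, in Rb-null 4. Of 14 T and natural killer cell markers in the files 3 passed the filter on low counts (Cd8a, Cd4 and Lck), and Cd3g, Gzmb, Ncr1 and Ifng had 0 reads. Cd4 was 3.28 to 10.17 CPM and Cd8a 2.12 to 9.31 CPM over the 8 libraries, and the sum was 12.7 to 14.9 against 11.8 to 18.5 CPM. The part of these cells in the class I values was not tested.

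Macrophage markers followed another course. Each of the 13 tested was positive, the median log2 fold change was 1.58, and sums were 76.9 to 176 CPM in Rb-null and 163 to 794 CPM in TET-MYCN libraries. Mmp12, a macrophage elastase, passed the test at 0.151 ± 0.0328 against 15.0 ± 10.04 CPM (6.56 ± 0.87, adjusted p = 0.0348), from the level of a few reads. That call was lost without Rb-null 2, 3 or 4 or TET-MYCN 1 or 4, since 0 genes then passed. Spp1 (5.19 ± 0.81, adjusted p = 0.0641) and Gpnmb (3.65 ± 0.62, adjusted p = 0.0858) did not pass. Their mean deviation was 1.93 in TET-MYCN 4 and 1.52 in TET-MYCN 1, where the average of all 9 class I genes was -0.058 and -0.15, and -0.88 in Rb-null 4, where that average was 0.64. Rod markers, all 14 negative with a median of -1.09, ranged from 4718 to 21050 CPM in sum among Rb-null and from 3279 to 7818 CPM among TET-MYCN libraries. Lens gene sums of 17.3 to 471 against 9.26 to 47.1 CPM were highest in Rb-null 3 and 2.

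**Figure D5:**
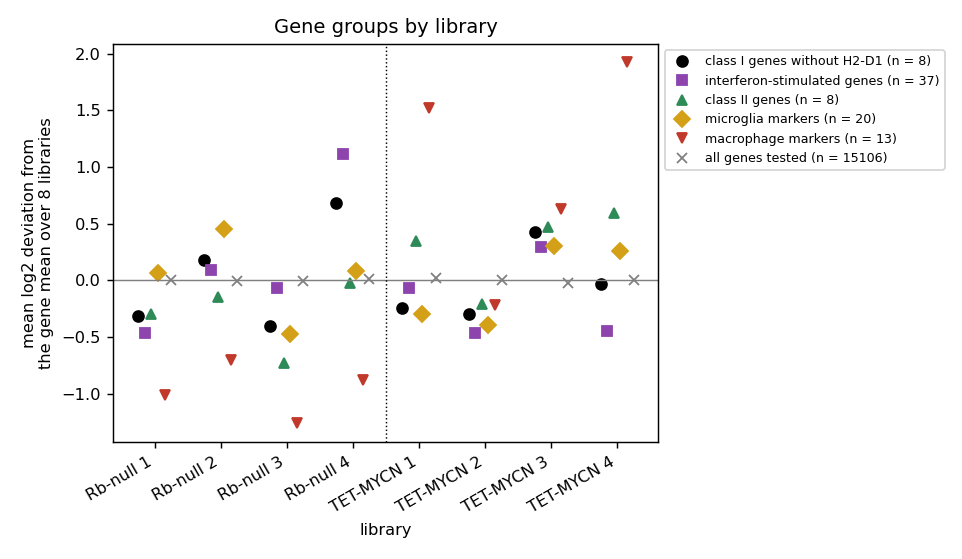
Mean log2 deviation of each gene group from the gene means over the 8 libraries (vertical axis) by library, with group sizes in the key and a dotted line between Rb-null (left) and TET-MYCN (right). The 8 class I genes other than H2-D1 and the interferon-stimulated genes are highest in Rb-null 4, at 0.68 and 1.11, while macrophage markers are highest in TET-MYCN 4 and 1.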

How the data were processed

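Peripheral retina RNA of 4 Rb-null and 4 TET-MYCN libraries was sequenced, and groups were taken from the genotype labels. The authors deposited a table of raw read counts per gene for each library. Per the submitters' processing notes, CASAVA 1.8.2, TopHat2 2.0.8b and HTSeq 0.5.4p3 were used with mm9; the annotation, options and strand use are not stated in the material at hand. Lines that name no gene (28.3% to 31.7% of each file's reads) were left out. Counts were scaled by TMM, filtered with filterByExpr and tested over all 15106 remaining genes with edgeR 4.0.16 (R 4.3.3; robust quasi-likelihood F test, two-sided, Benjamini-Hochberg, threshold 0.05). Positive log2 fold changes are higher in TET-MYCN, and the SE is the log2 fold change over the square root of F. DESeq2 1.42.0, limma 3.58.1 (voom), other scalings and filters and left-out libraries were alternatives. The genes and lists were chosen with earlier results of these data known. Named from each list were genes past the threshold and the 3 with the smallest unadjusted p at a mean of at least 1 CPM; retinal cell marker lists are given by counts or sums only. A gene that this rule names is not reported here. Exon lengths and shared 50-base windows came from GENCODE M21 and promoters from RefSeq, both on GRCm38, so no coordinate is from the build of the counts. Every pair of libraries within a group differed by more than sampling noise. The script for the test across genes was tested on simulated counts.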

Additional observations from a re-analysis of the deposited data

Results flagged for a closer look

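In 7 of 92 groups of 4 libraries tested, 1 library lay farther from the rest than Dixon's 95% criterion allows. Among independent groups of normally distributed values chance alone gives about 1 in 20. These groups reuse the same libraries, and many of their genes were named for a small p, so that rate is no measure for the 7. Among the class I genes, TET-MYCN 3 stood above the other TET-MYCN libraries for Tapbp (89.8 CPM) and for Psmb8 (11.5 CPM). Rb-null 4 stood above the other Rb-null libraries for the immunosubunit gene Psmb10 (20.5 CPM) and for the interferon-stimulated Trim25 (47.8 CPM). Rb-null 3 stood below the other Rb-null libraries for Sec61a1 (157 CPM) and for Ifi30 (11.8 CPM). Gpnmb, a macrophage marker, was 5.04 CPM in Rb-null 2, above the other Rb-null libraries (4.74 to 4.78 CPM).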

How the results depend on the processing

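No class I gene passed the threshold in any of the 17 alternatives to the edgeR test as reported, and the lowest adjusted p among them was 0.0665, for Tapbp without TET-MYCN 3. Over all genes, 9 passed as reported, 17 with no filter on low counts, 539 with DESeq2, 0 with limma-voom (where 2262 had an unadjusted p under 0.05), and 0 to 230 when 1 library was left out. The cause was not tested. The log2 fold changes of 5 class I genes changed sign when 1 library was left out, ranging from -0.27 to 0.32 for B2m, -0.064 to 0.12 for Tap2, -0.11 to 0.25 for Psmb9, -0.26 to 0.080 for Tap1 and -0.56 to 0.18 for Psmb8. The other 4 kept their sign, from 0.039 to 0.49 for H2-K1, -0.65 to -0.074 for H2-D1, -0.46 to -0.25 for Tapbp and -0.99 to -0.10 for Nlrc5. Further alternatives were chosen after seeing the data. Without the 2 libraries with the most multiply aligned reads (Rb-null 1 and TET-MYCN 3), 41 of all genes passed and all 9 class I genes were negative. Class I genes averaged -0.29 in Rb-null 1, the lowest of its group, and 0.34 in TET-MYCN 3, the highest of its group. For interferon-stimulated genes these averages were -0.46 and 0.30, again the lowest and the highest. Leaving both libraries out therefore lowers these fold changes by itself. H2-K1, B2m, Tap2 and Psmb9 changed sign, to -0.048, -0.38, -0.13 and -0.28, and H2-D1, Tap1, Tapbp, Psmb8 and Nlrc5 were -0.31, -0.32, -0.52, -0.73 and -1.14 (unadjusted p = 0.00163 and adjusted p = 0.109 for Tapbp in edgeR). The median of the interferon-stimulated genes was then -0.89, and 20 of 37 were lower at an unadjusted p under 0.05, against 10.8% of all genes. Without the 2 libraries with the most lens reads (Rb-null 2 and 3), 0 genes passed (1306 at an unadjusted p under 0.05), H2-K1 was -0.014, B2m -0.17 and that median -0.69. With at least 1 CPM required in 4 libraries, 4 of 5 class II genes tested were positive. The replicate numbers gave no sign of pairing: same-numbered libraries had correlations of -0.29 to -0.04 in their deviations from the group means. Over the same genes, all those tested, other pairs of an Rb-null and a TET-MYCN library had -0.24 to 0.448. The largest was that of Rb-null 4 with TET-MYCN 3, so these libraries deviated alike beyond the class I genes. With the replicate block, 3 of all genes and 0 class I genes passed. Depth limits Nlrc5 (19 to 106 reads) and Psmb9 most.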
